A study of Mus musculus with 12 samples.

Results

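The 10 genes described here encode the cytokines Tnf and Il6, the chemokines Ccl2, Ccl3, Cxcl10 and Cxcl12, the leukocyte adhesion molecules Icam1 and Vcam1, and the NF-kB inhibitors Nfkbia and Tnfaip3, and they were followed in the medial prefrontal cortex (mPFC) of male mice after chronic social defeat (CSD). They were chosen by name, as probe sets (groups of array probes summarized to 1 value) annotated to exactly 1 gene on that list. All 10 were found among the 19938 genes measured with a probe set of their own, each with 1 such probe set. The study hybridized 1 Affymetrix Mouse Gene 1.0 ST array per mouse, for 6 homecage (HC) mice and 6 CSD mice, all wild type males of the C57BL/6 strain, and the deposited values are log2 expression after RMA. HC mice were housed in groups and were not defeated. CSD mice shared a divided cage with an aggressive CD-1 male, met it in a short bout every day, entered the CSD group only if their behavior had changed in social interaction and light/dark tests, and gave tissue on the day after the last defeat. The mice were adult, with no age in weeks stated in the sources used here. The dissected mPFC is bulk tissue, so that fewer cells of a type and less RNA per cell cannot be told apart in any value below.

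In resting cells NF-kB dimers are held in the cytoplasm by I-kappa-B proteins, and receptors for TNF, interleukin-1 or microbial products activate kinases that mark I-kappa-B for destruction and free the dimers to enter the nucleus. There they switch on cytokines such as Tnf and Il6, chemokines such as Ccl2, Ccl3 and Cxcl10, and the adhesion molecules with which vessels catch leukocytes. The same dimers switch on their own brakes, Nfkbia (I-kappa-B alpha) and Tnfaip3 (the ubiquitin-editing enzyme A20), so that the level of these brakes is commonly read as a record of NF-kB activity. Cxcl12 differs from the other chemokines in that brain vessels, meninges and some neurons make it without inflammation.

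The promoters of the 2 feedback genes, of Icam1 and of the weakly measured Cxcl10 and Il6 are shown with their letter matches to the kappa-B motif, the kind of sequence that NF-kB dimers bind. The 250 bases upstream of the annotated start were available for 8 of the 10 genes from RefSeq (GRCm38.p6). They were searched on both strands for the kappa-B consensus, a motif of 10 letters, and for the same motif with its first base free, and matches, which may overlap, are in capitals. Each sequence is written 5′ to 3′ along the gene's strand and ends at the base before the start.
Nfkbia: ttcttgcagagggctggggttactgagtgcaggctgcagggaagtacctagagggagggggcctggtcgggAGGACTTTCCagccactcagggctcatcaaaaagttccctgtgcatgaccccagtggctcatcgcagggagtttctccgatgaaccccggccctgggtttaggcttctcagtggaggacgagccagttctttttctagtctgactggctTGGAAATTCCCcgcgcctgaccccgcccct
Tnfaip3: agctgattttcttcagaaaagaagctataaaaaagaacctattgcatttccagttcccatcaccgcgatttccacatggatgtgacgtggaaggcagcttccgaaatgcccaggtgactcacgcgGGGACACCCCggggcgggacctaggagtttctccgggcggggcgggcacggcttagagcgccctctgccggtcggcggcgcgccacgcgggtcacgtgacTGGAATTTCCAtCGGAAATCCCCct
Icam1: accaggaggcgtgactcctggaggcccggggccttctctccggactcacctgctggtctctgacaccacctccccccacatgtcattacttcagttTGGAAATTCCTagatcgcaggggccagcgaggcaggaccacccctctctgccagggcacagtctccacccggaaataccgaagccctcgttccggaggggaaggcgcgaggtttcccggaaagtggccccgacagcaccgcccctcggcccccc
Cxcl10: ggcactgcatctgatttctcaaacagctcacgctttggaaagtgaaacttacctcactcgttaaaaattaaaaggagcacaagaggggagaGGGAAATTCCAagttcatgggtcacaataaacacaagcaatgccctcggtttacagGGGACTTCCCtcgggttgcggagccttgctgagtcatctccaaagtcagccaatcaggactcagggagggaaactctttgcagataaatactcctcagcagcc
Il6: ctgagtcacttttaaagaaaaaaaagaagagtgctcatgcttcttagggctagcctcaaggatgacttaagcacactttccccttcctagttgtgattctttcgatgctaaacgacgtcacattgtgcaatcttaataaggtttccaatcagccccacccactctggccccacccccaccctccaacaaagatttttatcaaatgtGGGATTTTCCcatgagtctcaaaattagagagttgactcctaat
The Nfkbia window is chr12:55492648-55492897 on the minus strand, the Tnfaip3 window chr10:19015411-19015660 on the minus strand and the Icam1 window chr9:21015690-21015939 on the plus strand. The Cxcl10 window is chr5:92348890-92349139 on the minus strand and the Il6 window chr5:30012864-30013113 on the plus strand. The consensus was present in 4 of the 8 promoters, those of Il6, Cxcl10, Nfkbia and Tnfaip3. With the first base free, Tnf and Icam1 joined them, for 6 of 8. The Tnf sequence is not printed. Among 32841 promoter windows of the same length, 3.9% held the consensus and 11.3% the form with a free first base. In Nfkbia the consensus began 29 bases upstream of the start, in Tnfaip3 12 and 125 bases upstream, in Cxcl10 103 and 159 bases upstream, and in Il6 44 bases upstream. These matches describe letters in a window and measure no binding.

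An array gives no count of zero, so the level at which a gene is silent was taken from 1210 probe sets for olfactory and vomeronasal receptors, which are taken to be silent in cortex. Their mean over the 12 arrays had a median of 5.03, a 95th percentile of 6.99 and a 99th percentile of 7.83 on the log2 scale. Genes under 6.99 are called near background. By this limit 5 of the 10 genes were near background (Tnf, Il6, Ccl2, Ccl3 and Cxcl10) and 5 were above it (Cxcl12, Icam1, Vcam1, Nfkbia and Tnfaip3). Tnfaip3, at 7.29, was above the 95th but below the 99th percentile, so that 6 genes were near background at the stricter limit, and Icam1, at 7.88, lay just above it. With system noise plus 1 log2 unit as the limit 4 genes were near background, without Ccl3. Probes differ in brightness, so these levels place a gene against silent genes and do not rank the genes against each other.

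One array stood apart at the high end. HC replicate 2 had the highest array median (7.69, against 7.50 to 7.63 on the others) and the highest median of the silent receptor probe sets (5.30, against 4.89 to 5.06). It also had the highest value of 8 of the 10 genes, among them all 5 near background. The mean of those 5 genes was 6.39 on it and 5.91 to 6.13 on the other 11 arrays. The value of each tested gene without HC replicate 2 is given beside its difference. At the low end, HC replicate 6 had the lowest array median (7.50) and the lowest receptor median (4.89). Its median correlation with its own group was the lowest of the 12 arrays, 0.9901, against 0.9903 for HC replicate 2.

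**Figure D1:**
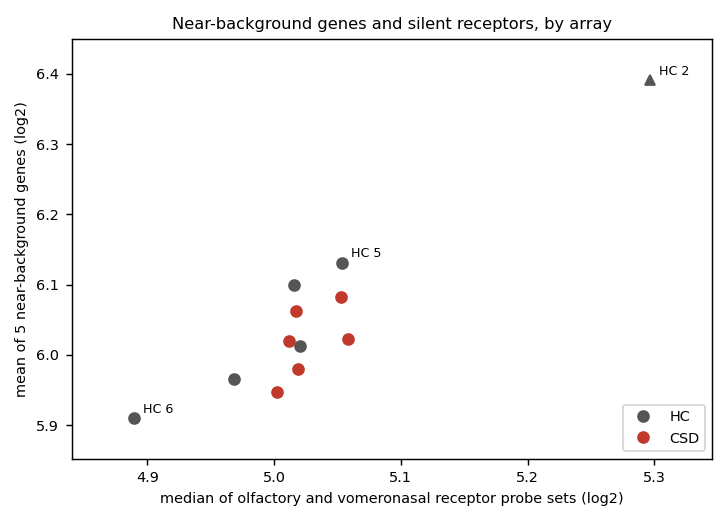
Each point is 1 array; the x axis is the median of the olfactory and vomeronasal receptor probe sets and the y axis the mean of the 5 near-background genes, both in log2 units (grey, HC; red, CSD; triangle, HC replicate 2). HC replicate 2 lies at 5.30 and 6.39, apart from the other arrays at 4.89 to 5.06 and 5.91 to 6.13.

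Whether CSD changed these genes was asked with limma (adjusted over the 29838 probe sets above system noise, with a call needing an adjusted p below 0.05 together with a change of 1.2-fold or more) and, for each gene alone, with a two-sided exact permutation test over 6 against 6 arrays, whose smallest possible p is 0.00216. Of the 10 genes 9 were tested, and Il6 was left out because no array exceeded noise. None was called, in a table where 0.0% of 29838 probe sets were called. At an unadjusted p under 0.05 in limma, 1 of the 9 passed (Tnfaip3, lower in CSD), which is 11.1% against 8.41% of 17656 genes, and 6.52% of genes passed on the lower and 1.89% on the higher side. The mean was lower in CSD for 7 genes and higher for 2, with a median difference of −0.05 against −0.01 over all genes, of which 57.1% were lower. HC and CSD arrays overlapped for all 10 genes, while they did not overlap for 1.01% of all genes (0.935% with every CSD array lower and 0.0793% with every CSD array higher). The largest difference was 1.12-fold, and no 95% interval of the 9 genes reached beyond 1.28-fold in either direction. RMA values near background understate differences, so that for Tnf, Ccl2, Ccl3 and Cxcl10 these limits hold for the deposited values only. The same may apply to Tnfaip3, near background at the stricter limit, and to Icam1, just above it.

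**Figure D2:**
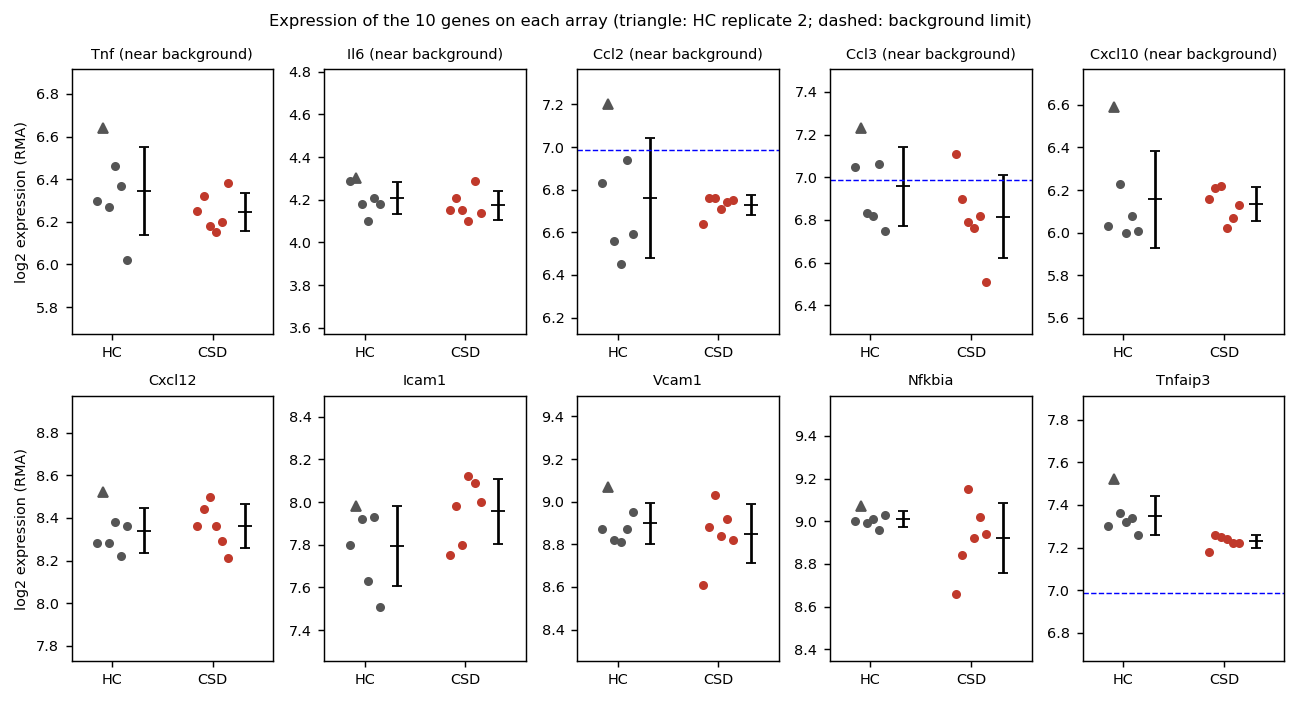
Log2 expression (y axis) on each HC (grey) and CSD (red) array, with mean and SD (n = 6 per group) beside the points and every panel spanning the same log2 range. The groups overlap for every gene; Tnfaip3 comes nearest to separating, with 5 of 6 CSD values under all HC values, and HC replicate 2 (triangle) is the highest array for 8 genes.

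Tnf, made mainly by microglia in brain, and Il6, the cytokine that drives the acute phase response, were near background in both groups, and Tnf did not pass the test. Tnf ran from 6.02 through a median of 6.34 to 6.64 in HC and from 6.15 through 6.23 to 6.38 in CSD. The highest and the lowest value both belonged to HC mice, and the CSD arrays lay between them. The means were 6.34 ± 0.21 and 6.25 ± 0.09 (SD, n = 6 each), a difference of −0.09 (SE 0.08, limma adjusted p = 0.838, exact permutation p = 0.344). Without HC replicate 6, the lowest array, the difference was −0.16 with an unadjusted limma p of 0.0385 (adjusted p = 0.579). Without HC replicate 2 it was −0.03.

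Il6 ran from 4.10 through 4.20 to 4.30 in HC and from 4.10 through 4.15 to 4.29 in CSD. All 12 values lay under the median of the silent receptor probe sets, and 0 arrays were above the noise level of 5.75. Its means of 4.21 ± 0.07 and 4.17 ± 0.07 (SD, n = 6 each) therefore allow no statement on Il6 mRNA in either group.

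Among the 4 chemokines, Ccl2, which recruits monocytes, spread widely in HC, from 6.45 through 6.71 to 7.20, and narrowly in CSD, from 6.64 through 6.74 to 6.76. The CSD arrays lay within the HC range. The means of 6.76 ± 0.28 and 6.73 ± 0.05 (SD, n = 6 each) differed by −0.04 (SE 0.11, limma adjusted p = 0.963, exact permutation p = 0.779). The sign turned to 0.05 without HC replicate 2.

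Ccl3 (MIP-1 alpha), a chemokine of activated microglia, ran from 6.75 through 6.94 to 7.23 in HC and from 6.51 through 6.80 to 7.11 in CSD, and 4 of the 12 arrays exceeded the background limit. In CSD 5 of 6 arrays lay under the HC mean. The difference of means, −0.14 (6.96 ± 0.18 and 6.81 ± 0.20, SD, n = 6 each), was within the spread between mice (SE 0.10, limma adjusted p = 0.778, exact permutation p = 0.247). It was −0.09 without HC replicate 2 and −0.08 without CSD replicate 10. Leaving out CSD replicate 2, the highest CSD array, gave −0.20 (limma unadjusted p = 0.0528).

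Cxcl10, induced by interferons and NF-kB and a ligand of Cxcr3 on T cells, ran from 6.00 through 6.06 to 6.59 in HC and from 6.02 through 6.14 to 6.22 in CSD. A single HC array, replicate 2, accounted for the upper end. The difference was −0.02 (SE 0.09, limma adjusted p = 0.979, exact permutation p = 0.896), and 0.07 without that array.

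Cxcl12, the only chemokine of the 4 above background, ran from 8.22 through 8.32 to 8.52 in HC and from 8.21 through 8.36 to 8.50 in CSD. The groups covered nearly the same range. The means were 8.34 ± 0.11 and 8.36 ± 0.10 (SD, n = 6 each), and the difference of 0.02 (SE 0.06, 95% interval −0.11 to 0.15, limma adjusted p = 0.967, exact permutation p = 0.799) was the smallest of the 9 in size. It was 0.06 without HC replicate 2, and changed sign without HC replicate 5 or CSD replicate 7 (each −0.01).

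The 2 adhesion molecules had means that differed in sign. Icam1, the ligand of leukocyte beta-2 integrins on endothelium and activated glia, had the largest difference of the 9 genes. It ran from 7.51 through 7.86 to 7.98 in HC and from 7.75 through 7.99 to 8.12 in CSD. In CSD 3 arrays lay above every HC array and 5 above the HC mean. The means of 7.80 ± 0.19 and 7.96 ± 0.15 (SD, n = 6 each) differed by 0.16 (SE 0.09), a fold change of 1.12 with a 95% interval of 0.977 to 1.28. This did not pass the test (limma unadjusted p = 0.0962, adjusted p = 0.693, exact permutation p = 0.128). Without HC replicate 2 the difference was 0.20 (limma unadjusted p = 0.0495, adjusted p = 0.479, exact permutation p = 0.0801), and without CSD replicate 2 it was 0.20 (limma unadjusted p = 0.0448, adjusted p = 0.624). Without HC replicate 6, the lowest array, it was 0.11 (limma unadjusted p = 0.220), the smallest value with an array left out, and without HC replicate 4 or CSD replicate 8 it was 0.13 each. With arrays centred on the silent receptors, a setting chosen after seeing the data, it was 0.18 (limma unadjusted p = 0.0307, adjusted p = 0.785, exact permutation p = 0.0498).

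Vcam1, the endothelial ligand of the integrin VLA-4, ran from 8.81 through 8.87 to 9.07 in HC and from 8.61 through 8.86 to 9.03 in CSD. The lowest array, CSD replicate 2, lay under all HC arrays and the rest overlapped. The means of 8.90 ± 0.10 and 8.85 ± 0.14 (SD, n = 6 each) differed by −0.05 (SE 0.07, limma adjusted p = 0.895, exact permutation p = 0.524). The difference was −0.01 without HC replicate 2. Leaving out CSD replicate 2 gave 0.00, and leaving out CSD replicate 7 gave −0.09.

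Both feedback inhibitors had lower means in CSD, and Tnfaip3 had the smallest p of the 9 genes. Tnfaip3 ran from 7.26 through 7.33 to 7.52 in HC and from 7.18 through 7.23 to 7.26 in CSD. Of the CSD arrays 5 lay under every HC array, the sixth just above the lowest of them, and all 6 lay under the HC mean. The means of 7.35 ± 0.09 and 7.23 ± 0.03 (SD, n = 6 each) differed by −0.12 (SE 0.04), a fold change of 0.920 with a 95% interval of 0.864 to 0.980. The exact permutation p was 0.00433, whereas limma gave an unadjusted p of 0.0139 and an adjusted p of 0.448, so that the gene was not called. HC replicate 2 was the highest array. Without it the difference was −0.09 (exact permutation p = 0.00433, limma unadjusted p = 0.0166), and over all 12 omissions of an array it stayed between −0.14 and −0.09 with unadjusted p-values of 0.00651 to 0.0325. Its level lay below the 99th percentile of the silent receptors.

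Nfkbia varied little among HC mice, from 8.96 through 9.005 to 9.07, and more among CSD mice, from 8.66 through 8.93 to 9.15. In CSD 4 arrays lay under every HC array, 1 within their range and 1, replicate 7, above all of them. The means of 9.01 ± 0.04 and 8.92 ± 0.17 (SD, n = 6 each) differed by −0.09 (SE 0.07, limma unadjusted p = 0.223, adjusted p = 0.802, exact permutation p = 0.268). Without CSD replicate 7 the difference was −0.13 (limma unadjusted p = 0.0420, adjusted p = 0.603), without CSD replicate 2, the lowest array, −0.03 (limma unadjusted p = 0.542), and without HC replicate 2 −0.07. The difference in spread was not tested.

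**Figure D3:**
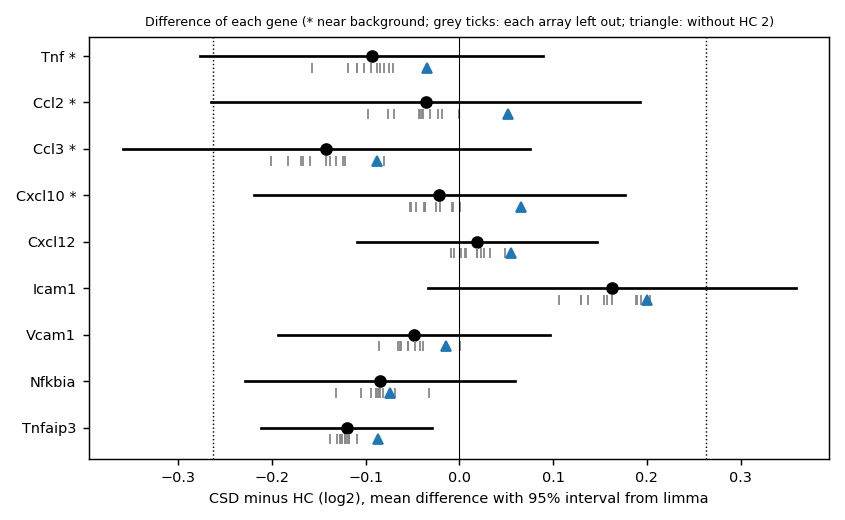
Difference of means (CSD minus HC, log2, x axis) of the 9 tested genes with 95% intervals from limma; ticks give the value with each array left out and triangles the value without HC replicate 2; dotted lines mark a fold change of 1.2. Tnfaip3 at −0.12 is the gene whose interval leaves 0, and the signs of Ccl2 and Cxcl10 turn without HC replicate 2.

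The surrounding pathway was read from 6 lists with 129 genes, of which 118 were measured, 110 were tested and 42 were near background. In CSD 55 had higher and 55 had lower means, with a median difference of −0.00. At an unadjusted p under 0.05 in limma 5 passed, 1 higher and 4 lower, which is 4.55% against 8.41% of all genes, and none passed after adjustment. Without HC replicate 2 the count was 15 of 107 (10 higher, 5 lower), or 14.02% against 10.6% of all genes in that setting. The split by direction moved with the scaling of the arrays, to 1 higher and 8 lower with arrays centred on their medians, 2 higher and 8 lower with quantile normalization, and 5 higher and 1 lower with arrays centred on the silent receptors (5.56% against 5.05% of all genes). In the last setting, chosen after seeing the data, Csf1, Ccl6 and Rela no longer passed (limma unadjusted p = 0.141, 0.0630 and 0.203).

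Among 20 other cytokines tested 9 were higher and 11 lower, and 1 passed the unadjusted p. This was Csf1, a growth factor for microglia, which ran from 8.24 through 8.31 to 8.36 in HC and from 8.14 through 8.18 to 8.25 in CSD. Of its CSD arrays 5 lay under all HC arrays, and the difference was −0.12 (SE 0.03, limma adjusted p = 0.313, exact permutation p = 0.00433). The next by p was Ifng, the type II interferon, at −0.09 (exact permutation p = 0.167). Of 23 other chemokines 11 were higher and 12 lower, and 1 passed. Ccl6, near background, differed by −0.13 (limma adjusted p = 0.482, exact permutation p = 0.0346) and lost the unadjusted p without CSD replicate 10 (−0.11, p = 0.0519 in limma). Ccl28, a mucosal chemokine near background here, differed by 0.14 (limma unadjusted p = 0.109).

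Of 15 receptors for the 10 genes' products 9 were higher and 6 lower, and none passed in limma. The smallest p belonged to Ackr3, a scavenging receptor for Cxcl12, at −0.12 (limma unadjusted p = 0.0599, exact permutation p = 0.0801), and the next to Il6ra, the ligand-binding Il6 receptor chain, at 0.08 (limma unadjusted p = 0.112).

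Of 20 NF-kB subunits and activating kinases 8 were higher and 12 lower, and 1 passed. Rela, the p65 subunit, ran from 8.45 through 8.52 to 8.69 in HC and from 8.41 through 8.43 to 8.47 in CSD, with 5 CSD arrays under all HC arrays. Its difference of −0.12 (SE 0.05, limma adjusted p = 0.513, exact permutation p = 0.00866) lost the unadjusted p without HC replicate 4 (−0.10, p = 0.0620 in limma) or HC replicate 6 (−0.09, p = 0.0547 in limma). Ikbkg (NEMO), the scaffold of the I-kappa-B kinase, differed by −0.09 (limma unadjusted p = 0.0530, exact permutation p = 0.0325). Of 19 other inhibitors and feedback genes 13 were higher and 6 lower, and 1 passed. Nfkbib, which encodes I-kappa-B beta, ran from 10.74 through 10.84 to 10.93 in HC and from 10.53 through 10.68 to 10.75 in CSD. Its difference of −0.18 (SE 0.04, limma adjusted p = 0.236, exact permutation p = 0.00433) was the pathway's smallest p, and it stayed between −0.20 and −0.15 with any array left out. Bcl3, an atypical I-kappa-B protein of the nucleus, differed in the other direction, by 0.16 (limma unadjusted p = 0.0723).

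Of 13 other leukocyte adhesion molecules 5 were higher and 8 lower, and 1 passed. Icam5 (telencephalin), an adhesion molecule of forebrain neurons rather than vessels, ran from 10.01 through 10.15 to 10.25 in HC and from 10.24 through 10.28 to 10.30 in CSD. Of its CSD arrays 5 lay above all HC arrays, and the difference was 0.14 (SE 0.04, limma adjusted p = 0.315, exact permutation p = 0.00433). Jam2, a junctional molecule of endothelium, differed by −0.11 (limma unadjusted p = 0.0565).

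**Figure D4:**
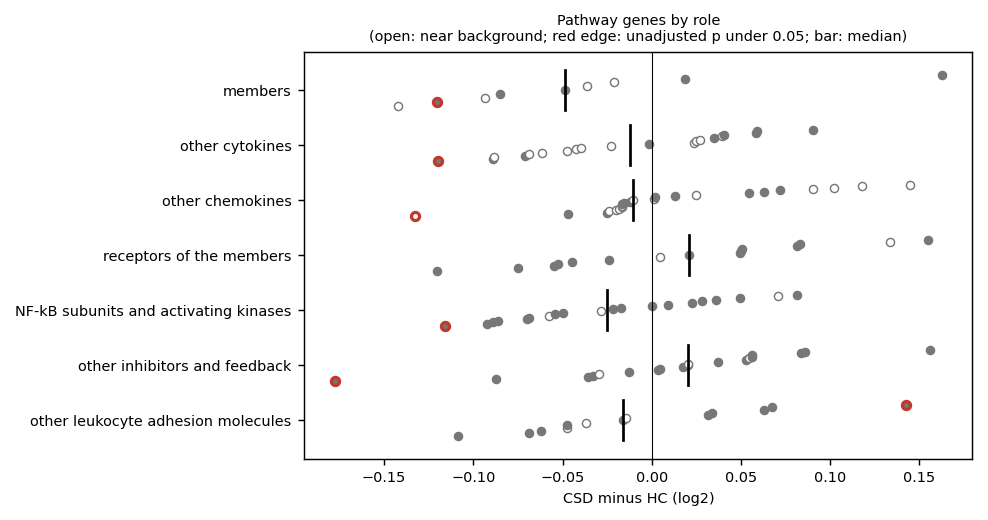
Difference of means (CSD minus HC, log2, x axis) of every tested gene in the 10-gene group and 6 pathway lists; open points are near background, red edges mark an unadjusted limma p under 0.05 and bars are list medians. Each list spreads on both sides of 0 within about the same range, and its median lies between −0.05 and 0.02.

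Markers of the cells that make these products were read beside them. Over all genes 57.1% had lower means in CSD, and 6.52% were lower at the unadjusted p in limma. Without HC replicate 2 the median difference over all genes moved from −0.01 to 0.01. In that setting 5.49% of genes were higher and 5.09% lower at the unadjusted p in limma. The markers were read in the main fit only, so the dependence of their small shifts on that array was not tested. Of 15 microglial markers 14 had lower means in CSD and 3 of them passed the unadjusted p in limma (median −0.06), and their log2 summed level was 13.16 to 13.38 in HC and 13.08 to 13.22 in CSD. Of 13 endothelial markers 9 were lower, 2 at the unadjusted p (median −0.05), with sums of 12.75 to 12.95 in HC and 12.66 to 13.01 in CSD. The 12 astrocyte markers, 10 of them lower and 1 at the unadjusted p, had a median of −0.07, with sums of 14.92 to 15.04 in HC and 14.94 to 14.99 in CSD. All 11 mature oligodendrocyte markers were lower at the unadjusted p, with a median of −0.64 and sums of 13.77 to 14.26 in HC and 13.20 to 13.68 in CSD. The 11 neuronal markers were all above background, had 0 at the unadjusted p and had a median of −0.01. The part of these shifts in the lower means of Tnf, Ccl3, Vcam1, Nfkbia and Tnfaip3 was not tested. Of 13 blood leukocyte markers 11 were near background, among them Ptprc, Ly6g and Ms4a1, and the sums were 9.89 to 10.27 in HC and 10.0003 to 10.18 in CSD. The 10 markers of pericytes and smooth muscle split into 5 higher and 5 lower (median 0.0007). For meningeal fibroblasts 4 of 9 were higher and 5 lower (median −0.0035), and neither list had a gene at the unadjusted p.

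Across mice, the 5 genes above background were compared with each other in 10 pairs, as deviations from the group means over 12 arrays. Vcam1 and Nfkbia varied together (Pearson r = 0.850, permutation p = 0.00147, adjusted over the 10 pairs 0.0147), but the rank correlation did not pass after adjustment (Spearman rho = 0.734, permutation p = 0.00878, adjusted 0.0878). Within HC r was 0.837 and within CSD 0.932. The permutations exchanged deviations between groups of unlike spread. The SD of Nfkbia was 0.04 in HC and 0.17 in CSD, and that of Tnfaip3 0.09 and 0.03. Permutation p-values for pairs with these genes are therefore approximate, and CSD mice weigh more in the r of Vcam1 and Nfkbia over 12 arrays. Without CSD replicates 2 and 7, the arrays farthest from the median of Vcam1, r was 0.503 (permutation p = 0.139). The pair thus did not pass without those 2 mice. Fewer arrays and a narrower range can lower r by themselves, so this omission cannot show whether the relation rests on them. With any single array left out r was 0.717 to 0.897. Icam1 and Tnfaip3 gave r = 0.612 (permutation p = 0.0233, adjusted 0.116) and rho = 0.622 (permutation p = 0.0342, adjusted 0.171), and without HC replicate 6 and CSD replicate 2 r was 0.393 (permutation p = 0.271). With arrays centred on their medians r was 0.417 for Icam1 and Tnfaip3 and 0.800 for Vcam1 and Nfkbia. The other 8 pairs had unadjusted permutation p-values for r above 0.05.

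**Figure D5:**
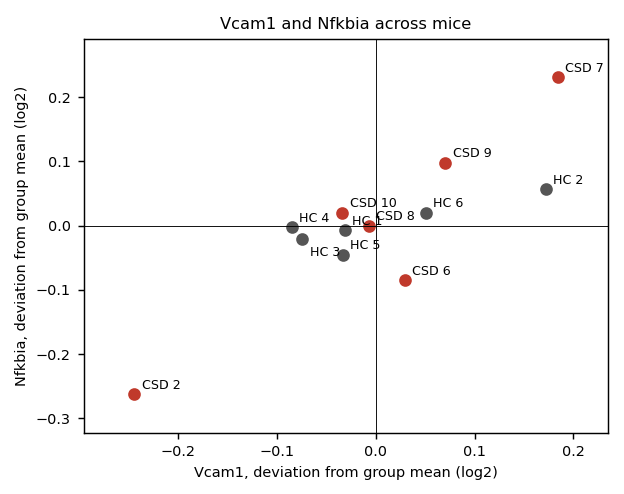
Each point is 1 mouse (grey, HC; red, CSD) with the deviation of Vcam1 (x axis) and of Nfkbia (y axis) from its group mean in log2 units. CSD replicates 2 and 7 form the ends of the relation; with them Pearson r is 0.850 and without them 0.503.

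The genes whose deviations followed each gene most closely over the 12 arrays, among 13467 compared, are given as a description with no test. For Vcam1 they were Oasl2 (r = 0.978), Med12 (r = 0.929) and Mgat3 (r = 0.905), and for Nfkbia Crtap (r = 0.953), Timp3 (r = 0.932) and Rrp8 (r = 0.927). Oasl2 is an interferon-induced gene, and Timp3 an inhibitor of matrix metalloproteinases. For Icam1 they were Aoc2 (r = 0.948), Nhlrc1 (r = 0.947) and Mamdc4 (r = 0.933), and for Cxcl12 Hinfp (r = 0.954), Commd7 (r = 0.921) and Btd (r = 0.903). For Tnfaip3 they were Aprt (r = 0.960), Cdc42bpg (r = 0.956) and Cyb5r1 (r = 0.942). All arrays share their normalization, and with arrays centred on their medians the r of Cdc42bpg was 0.648 and that of Cyb5r1 0.764.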

How the data were processed

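Total RNA (200 ng per mouse) of the prefrontal cortex was hybridized to 1 array each. The values, deposited by the authors on the log2 scale, come from RMA in Affymetrix Expression Console per the labels' processing notes, with no version stated there. RMA corrects background, normalizes the arrays and summarizes probes, and so compresses differences of dim probe sets. All columns of the table (35556 probe sets, 12 arrays) were used. Arrays have no read depth, and their number limits the precision. The labels used here give no batch.

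The platform annotation of 2016 named 21789 probe sets with 1 gene and 1621 with several. The methods filter on system noise without giving its value, which was set to the 20th percentile of the table (5.75). Probe sets that never exceeded it (5718) were left out, and values under it were set to it. The 29838 others were fitted with limma 3.58.1 (lmFit and eBayes; R 4.3.3), two-sided, with Benjamini-Hochberg adjustment over all of them, after the script had been tested on simulated data. Single genes were also compared by exact permutation over 924 splits. Correlations used 100000 permutations (scipy 1.17.1, Python 3.11.15), and figures matplotlib 3.10.9.

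The 10 genes and the pathway and marker lists were chosen with earlier results of these data known. The text also names the 2 genes of each pathway list with the smallest p and the 3 genes most correlated with each gene above background; the markers named are outside this rule. Alternatives changed the test (the methods' t-test, a variance trend with robust estimation, or weights per array), the floor, the filter, the noise level (by 1 log2 unit), the probe sets entering the fit, their summary per gene, the scaling of arrays (medians or quantiles), the use of the replicate number as a block, and the arrays (each left out in turn, and HC replicates 2 and 6 together). Centring on the silent receptors, and the exact test without HC replicate 2, were chosen after seeing the data.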

Additional observations from a re-analysis of the deposited data

How the results depend on the processing

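None of the 10 genes was called under any of the limma alternatives, the methods' t-test or the omission of any array. Calls were also rare in the whole table, with 21 of 17656 genes called when only probe sets with 1 gene were fitted. There were 14 of 17656 with a variance trend and robust estimation, 1 of 17508 with quantile normalization and 0 in every other setting. The count at an unadjusted p under 0.05 (Tnfaip3 alone) was 2 with arrays centred on the silent receptors and 1 to 2 with an array left out, being 2 without HC replicate 2 or 6 or CSD replicate 2 or 7. Over all genes the share was 8.41% in the main fit. It was 5.05% with arrays centred on the silent receptors and 6.39% to 10.6% with an array left out. The titles share the replicate numbers 2 and 6 between the groups, but no label says that they pair mice, and deviations of same-numbered arrays correlated at −0.196 and −0.0329. With the number as a replicate block, every array with another number is alone in its block. The difference then comes only from replicates 2 and 6 of each group, with little power. This setting therefore cannot show whether the differences over all arrays hold. In it 0 of the 9 genes tested and 0 pathway genes passed, where 1.17% of all genes did. Tnfaip3 differed by −0.17 (limma unadjusted p = 0.309), and Ccl3 and Cxcl12 changed sign, to 0.013 and −0.045.

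The 5 pathway genes at an unadjusted p (4.55% against 8.41% of all genes) became 8 with no filter on low values (6.78% against 8.35%), 9 with arrays centred on their medians (8.33% against 10.05%), 10 with quantile normalization (9.26% against 11.2%), 9 with array weights (6 higher, 3 lower, 8.18% against 10.3%), 10 without HC replicates 2 and 6 together (7 higher, 3 lower, 9.35% against 8.51%), and 5 to 15 with an array left out (15 without HC replicate 2, 8 without CSD replicate 9). Ccl2 was 0.019 with array weights, 0.031 without HC replicates 2 and 6, and −0.098 to 0.051 with an array left out, and Cxcl10 was 0.045, 0.050 and −0.053 to 0.066. Without HC replicate 2 the exact test also had Ccl2 at 0.051 and Cxcl10 at 0.066 (added after seeing the data). Vcam1 was 0.0071 without HC replicates 2 and 6, and ran from −0.085 to 0.00024 with an array left out, and Cxcl12 from −0.0090 to 0.055. Apart from Ccl3 with the replicate block, no other of the 9 genes changed sign in any setting. The named pathway genes kept their sign in all settings. Near-background probe sets limit Tnf, Il6, Ccl2, Ccl3 and Cxcl10: their level cannot be told from that of silent genes.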
